A study of Mus musculus with 7 samples.

Results

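The phosphatidylinositol 3-kinase-related kinases are 6 very large proteins, Atm, Atr, Prkdc, Mtor, Smg1 and Trrap, and they were studied here together with 4 proteins that work with them, Atrip, Telo2, Tti1 and Tti2. The 10 genes were chosen by name and not by a rule on their values, though with earlier results of these data known. All 10 were found among the 24419 gene symbols of a count table of LLC1 cells. LLC1 comes from a Lewis lung carcinoma of the mouse and was cultured in DMEM with foetal bovine serum. The wild-type group held 4 libraries and the other group 3 libraries of the same line with an shRNA knockdown of Ddx54, a nucleolar DEAD-box RNA helicase. Neither a control construct in the wild-type cells, nor the shRNA sequence, nor a clone is named in the labels, which also do not say whether replicates came from separate cultures, so the p-values measure the spread between these libraries, which may be technical. The comparison asks how the transcripts of the tumour cells differ when Ddx54 is lowered. The values are of messenger RNA, and neither protein nor kinase activity was measured.

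Despite their family name, these enzymes are known as protein kinases, with a catalytic domain related to that of the lipid kinases near the end of a long helical scaffold. Atm answers to DNA double-strand breaks, Atr with its partner Atrip to single-stranded DNA at stalled replication forks, and Prkdc, the catalytic subunit of DNA-PK, to broken ends that are to be rejoined. Mtor drives growth in answer to nutrients, Smg1 phosphorylates Upf1 in nonsense-mediated mRNA decay, and Trrap has lost the catalytic residues and serves as a scaffold of histone acetyltransferase complexes. Telo2, Tti1 and Tti2 form the TTT complex, which works with Hsp90 to fold and stabilise newly made kinases of the family.

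Libraries held 14987324 to 18673395 counts. Ddx54 was at 78.6 to 83.2 CPM (counts relative to library size, scaled between libraries by TMM) in wild-type and at 39.2 to 45.9 CPM in knockdown, so that no library went against its label. Of the markers of the carcinoma line, Krt18 fell from 217.5 ± 4.77 to 131.7 ± 4.02 CPM and Krt19 from 4.39 ± 0.49 to 1.08 ± 0.54 CPM, while Krt8 and Vim did not pass. Of the markers of other cell types, 6 leukocyte genes summed to at most 5.03 CPM and 4 endothelial genes to at most 0.78 CPM in any library, with 1 and 2 of them at 0 throughout. The 6 fibroblast genes summed to 1043 to 1235 CPM in wild-type and 1058 to 1125 CPM in knockdown, nearly all of it Col3a1 (1105 ± 89.4 and 1059 ± 32.4 CPM), with 1 of them at 0 throughout. Col1a1 was at 0.79 ± 0.57 and 0.30 ± 0.37 CPM and Dcn at 5.88 ± 2.62 and 4.20 ± 2.01 CPM, while Pdgfra, which did not pass (adjusted p = 0.0578, edgeR), ranged from 17.9 to 19.7 CPM in wild-type and from 23.7 to 25.9 CPM in knockdown, without overlap. The part of these markers in the results was not tested.

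Atm and Atr were higher in knockdown, and the other 8 genes did not pass the test. In the same comparison 29.4% of the 11594 tested genes passed an adjusted p of 0.05, with 14.1% higher and 15.3% lower, so that 2 of 10 genes higher and 0 lower is near the background. With total counts as the only scaling, 2211 genes were higher and 1342 lower, against 1635 and 1770 here. The share of counts on Rn45s, the ribosomal RNA precursor, was 10.7% to 12.47% in wild-type and 7.96% to 9.07% in knockdown, without overlap, and its part in these results was not tested. The ranges of the groups did not overlap for 2 of the 10 genes, beside 35.1% of all tested genes. All 10 genes passed the filter on low counts. The median log2 fold change was 0.15 over the 6 kinases and -0.02 over the 4 partners, beside 0.001 over all tested genes. Because RNA of whole cultures was sequenced, a change in the share of cells that express a gene and a change in its level per cell cannot be told apart.

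The promoters of Atm and Atr, which rose, and of Tti1, which did not pass, are shown. Atm and Tti1 share their start region with a neighbour, as Prkdc does, and for Atr no such neighbour was found. For 8 of the 10 genes, Prkdc and Tti2 excepted, RefSeq (GRCm38.p6) gave a window of 300 bases, 250 before the start and 50 from it on. Telo2 has windows at separate starts. Capitals mark the letters of 4 motifs searched on both strands, CCAAT (the CCAAT box), GGGCGG (the GC box), CCGGAAG (the core bound by ETS factors) and TTTCCCGC or TTTGGCGC (forms of the E2F motif). No 2 marked motifs overlap in the windows printed. The Atm window is chr9:53536622-53536921 on the minus strand, that of Atr chr9:95857347-95857646 on the plus strand, and that of Tti1 chr2:158028385-158028684 on the minus strand.
Atm: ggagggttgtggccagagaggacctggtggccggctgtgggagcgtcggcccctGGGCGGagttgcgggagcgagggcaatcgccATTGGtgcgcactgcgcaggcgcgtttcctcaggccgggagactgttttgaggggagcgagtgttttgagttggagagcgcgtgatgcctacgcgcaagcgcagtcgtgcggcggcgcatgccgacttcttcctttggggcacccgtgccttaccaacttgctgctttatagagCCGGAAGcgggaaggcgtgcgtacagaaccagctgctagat
Atr: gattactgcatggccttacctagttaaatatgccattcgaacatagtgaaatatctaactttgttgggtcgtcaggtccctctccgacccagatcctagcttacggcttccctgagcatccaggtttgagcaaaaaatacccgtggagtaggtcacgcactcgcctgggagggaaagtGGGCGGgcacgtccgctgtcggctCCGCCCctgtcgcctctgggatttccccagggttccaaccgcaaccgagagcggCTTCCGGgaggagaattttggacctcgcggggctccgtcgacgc
Tti1: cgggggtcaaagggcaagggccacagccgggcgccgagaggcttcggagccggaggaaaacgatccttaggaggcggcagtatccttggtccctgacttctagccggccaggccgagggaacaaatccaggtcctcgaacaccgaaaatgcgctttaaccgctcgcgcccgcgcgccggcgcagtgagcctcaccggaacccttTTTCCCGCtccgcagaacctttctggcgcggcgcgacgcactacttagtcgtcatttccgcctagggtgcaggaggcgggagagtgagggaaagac

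The ETS core lies past the RefSeq start in both genes that rose, from base 10 to base 16 in Atm and, on the other strand, from base 7 to base 13 in Atr, counted from 1 at that start. The RefSeq start of Atm lies 69 bases downstream of the start of the GENCODE gene, whose coordinates are given with each gene here, so that the core of Atm lies farther from the GENCODE start, while for Atr both starts are the same base. The ETS core was found in the windows of 3 of the 8 genes, the third being Mtor, and in 8.86% of all 32851 windows of this length. An E2F form was found only in the window of Tti1 among these 8 genes, and in 1.56% of all windows. The GC box was also in the windows of both genes that rose, as in those of Mtor, Smg1, Trrap and Atrip, and in 35.7% of all windows. The CCAAT box was in those of Atm, Mtor, Smg1, Atrip and Telo2, and in 37.4% of all windows. These are matches of letters, not measured binding.

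Atm is read from the minus strand of chromosome 9, from 53439149 to 53536740 (GRCm38, protein-coding gene ENSMUSG00000034218.16). Its level was 52.6, 34.8, 38.0 and 52.2 CPM in wild-type libraries 1 to 4 and 69.6, 73.5 and 77.7 CPM in knockdown libraries 1 to 3. Wild-type 1 and 4 were the high wild-type libraries, and all 3 knockdown libraries lay above them with no overlap. The fitted rise was 1.65-fold (95% interval 1.397 to 1.96; log2 fold change 0.73, SE 0.12; adjusted p = 1.7e-05 with edgeR's quasi-likelihood test). Permuting the group labels in all 35 ways (exact, two-sided) gave p = 0.0286, the smallest it can give. The call held under all 17 alternatives, with log2 fold changes from 0.61 to 0.83.

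Atr is read from the plus strand of chromosome 9, from 95857597 to 95951781 (ENSMUSG00000032409.15). It was at 27.4, 17.7, 25.2 and 25.5 CPM in wild-type and at 34.1, 33.5 and 30.1 CPM in knockdown. The groups did not overlap, but knockdown 3 was only a little above wild-type 1, and wild-type 2 was well below the other wild-type libraries. Atr rose 1.36-fold (95% interval 1.11 to 1.66; log2 fold change 0.44, SE 0.14, adjusted p = 0.0187, edgeR), and the exact permutation test gave p = 0.0571. The call was lost without wild-type replicate 2 (0.32, adjusted p = 0.0737, edgeR) and without Ddx54 knockdown replicate 1 (0.41, adjusted p = 0.0808) or 2 (0.42, adjusted p = 0.074). It was also lost when fold changes were corrected for transcript length and GC content (0.31, adjusted p = 0.0849). Annotated antisense genes overlap 3.07% and 1.96% of the merged exons of Atr, and the strand setting of the counting is not given, so their reads cannot be told apart from those of Atr.

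**Figure D1:**
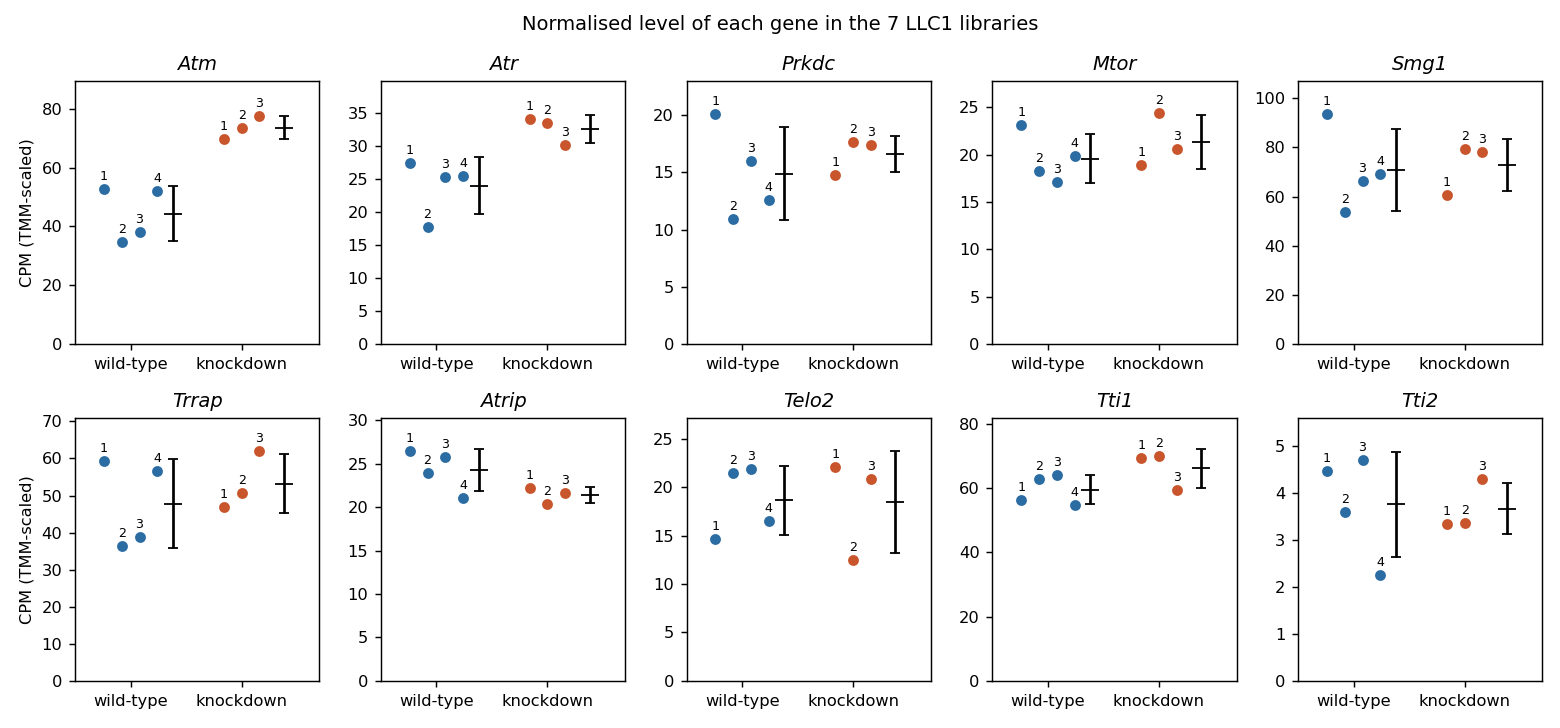
Normalised level (TMM-scaled CPM, linear axes from 0) of each of the 10 genes in the 4 wild-type libraries (blue) and the 3 Ddx54 knockdown libraries (orange), with replicate numbers above the points and the mean and SD in black. Only Atm and Atr have groups that do not overlap, and wild-type 1 is the highest wild-type library for all 6 kinases.

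Prkdc is read from the plus strand of chromosome 16, from 15637866 to 15842235 (ENSMUSG00000022672.8). It was at 20.1, 10.9, 16.01 and 12.6 CPM in wild-type and at 14.8, 17.6 and 17.4 CPM in knockdown. All knockdown values lay inside the wild-type range. The log2 fold change was 0.15 (95% interval -0.24 to 0.54, adjusted p = 0.605, edgeR), so a rise as large as that of Atm lies outside the interval and a rise as large as that of Atr inside it.

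Mtor, on the plus strand of chromosome 4 from 148448611 to 148557683 (ENSMUSG00000028991.15), was at 23.1, 18.3, 17.1 and 19.8 CPM in wild-type and at 18.9, 24.4 and 20.6 CPM in knockdown. The groups overlapped, and the highest value was that of knockdown 2 and the lowest that of wild-type 3. Its log2 fold change was 0.12 (95% interval -0.20 to 0.44, adjusted p = 0.621, edgeR).

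Smg1, on the minus strand of chromosome 7 from 118131308 to 118243670 (ENSMUSG00000030655.15), was at 93.5, 53.5, 66.3 and 69.2 CPM in wild-type and at 60.5, 79.4 and 78.1 CPM in knockdown. Wild-type 1 was the highest library of all and wild-type 2 the lowest of all. The log2 fold change was 0.04 (95% interval -0.31 to 0.39, adjusted p = 0.894, edgeR), and it turned to -0.07 without wild-type replicate 2 and to -0.09 under the length and GC correction.

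Trrap, on the plus strand of chromosome 5 from 144767732 to 144859778 (ENSMUSG00000045482.16), was at 59.4, 36.3, 38.7 and 56.7 CPM in wild-type and at 46.8, 50.6 and 62.1 CPM in knockdown. Its wild-type libraries fell into a high pair, 1 and 4, and a low pair, 2 and 3, as those of Atm did, but the knockdown libraries lay between and just above them. The log2 fold change was 0.15 (95% interval -0.17 to 0.47, adjusted p = 0.521, edgeR).

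None of the 4 partners passed. Atrip, which brings Atr to single-stranded DNA coated with replication protein A, was at 26.4, 23.9, 25.8 and 21.02 CPM in wild-type and at 22.3, 20.4 and 21.6 CPM in knockdown. Only wild-type 4 lay among the knockdown libraries, while the other 3 wild-type libraries were above them. Its log2 fold change was -0.18 (95% interval -0.48 to 0.11, adjusted p = 0.383, edgeR), so that the estimates for Atr and for its partner had opposite signs; the difference between them was not tested. Atrip lies on chromosome 9 at 109057933 to 109074124 on the minus strand (ENSMUSG00000025646.9), and 16.04% of its merged exons are shared with Trex1 on the same strand, an exonuclease gene that was itself at 3.02 to 8.97 CPM in wild-type and 8.07 to 8.52 CPM in knockdown.

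Tti1, the scaffold of the TTT complex (chromosome 2 at 157981803 to 158028433, minus strand, ENSMUSG00000027650.12), was at 56.4, 62.8, 64.0 and 54.8 CPM in wild-type and at 69.3, 70.1 and 59.3 CPM in knockdown. Knockdown 1 and 2 lay above all wild-type libraries, and knockdown 3 lay among them. The log2 fold change was 0.16 (95% interval -0.05 to 0.36, adjusted p = 0.258, edgeR).

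Telo2, whose product binds the kinases directly (chromosome 17 at 25099570 to 25115967, minus strand, ENSMUSG00000024170.15), was at 14.7, 21.5, 21.8 and 16.5 CPM in wild-type and at 22.1, 12.4 and 20.8 CPM in knockdown. Both groups held low and high libraries, and knockdown 2 was the lowest of all. Its log2 fold change was -0.01 (95% interval -0.40 to 0.37, adjusted p = 0.971, edgeR).

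Tti2 (chromosome 8 at 31150315 to 31164702, plus strand, ENSMUSG00000031577.10) was the least expressed of the 10, at 4.47, 3.60, 4.71 and 2.25 CPM in wild-type and at 3.34, 3.36 and 4.29 CPM in knockdown. These rest on 38 to 82 counts per library, and the 95% interval of its log2 fold change of -0.04, from -0.775 to 0.70, was the widest of the 10 (adjusted p = 0.959, edgeR). Of its merged exons 14.6% are shared with Mak16, a gene on the other strand at 126 to 152 CPM over all 7 libraries. How reads in shared exons were counted is not given, so Tti2 may hold reads of Mak16 or lack reads of its own.

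**Figure D2:**
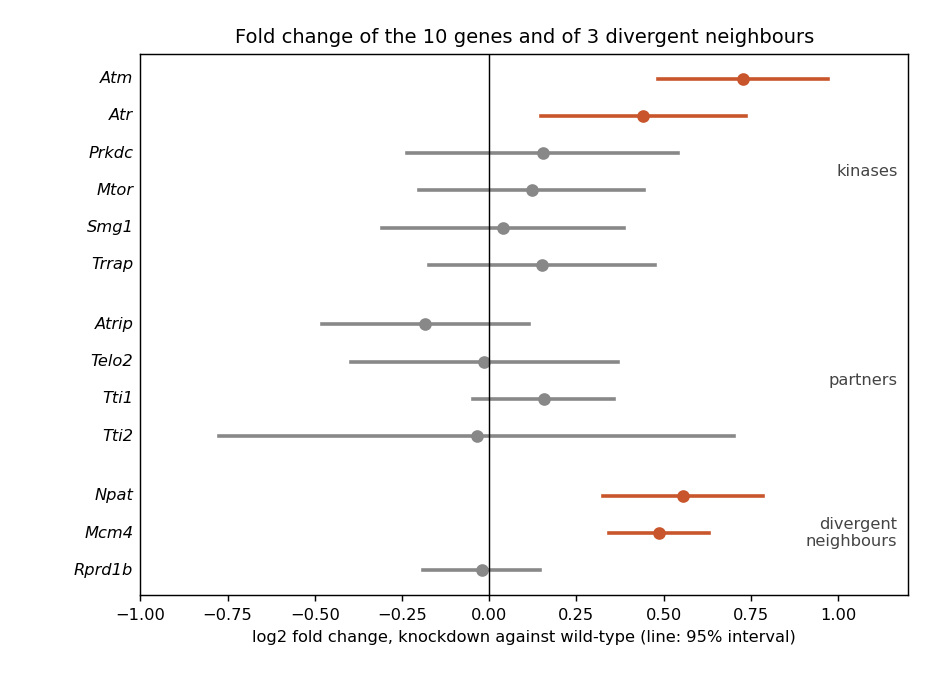
Log2 fold change of the 6 kinases, the 4 partners and the 3 genes read away from a shared start region, knockdown against wild-type, with 95% intervals from the fit; orange passed an adjusted p of 0.05 and grey did not. Atm (0.73) and Atr (0.44) stand to the right of 0, as do the neighbours Npat (0.55) and Mcm4 (0.49), while the interval of Prkdc spans 0.

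For 5 of the 6 kinases the spread between wild-type libraries was larger than that between knockdown libraries, and for Mtor both were nearly equal. The coefficient of variation (SD over mean) of Prkdc was 27.1% in wild-type and 9.45% in knockdown, that of Smg1 23.6% and 14.5%, and that of Atm 20.97% and 5.51%. For Mtor it was 13.3% and 13.2%. With 4 and 3 libraries these spreads are themselves imprecise and their difference was not tested.

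The wild-type spread was ordered by library. Wild-type 1 was the highest of the 4 wild-type libraries for 6 of 6 kinases, and wild-type 2 was the lowest for 5 of 6, Mtor being lowest in wild-type 3. Among the 4 partners, wild-type 1 was highest for 1 and lowest for 1, and wild-type 2 was neither highest nor lowest for any. With tested genes put in 10 bins of equal size by the length of their longest coding transcript, all 6 kinases lie in the bin of longest transcripts, with transcripts of 8102 bases for Atr to 15557 bases for Smg1, whereas the partners have 2572 to 5039 bases. Over all genes of that bin, the median deviation from the wild-type mean was 0.08 log2 units in wild-type 1, -0.12 in wild-type 2, -0.02 in wild-type 3 and 0.06 in wild-type 4. In the bin of shortest transcripts it was 0.09 in wild-type 2 and -0.08 in wild-type 4. The longest bin also had a median log2 fold change of 0.07 between the groups, with 18.9% of its genes higher and 14.3% lower in knockdown. What transcript length contributes to each kinase beyond the correction reported here was not tested. With both wild-type 1 and wild-type 2 left out, an alternative chosen after seeing the data, the log2 fold change of Atm was 0.70 (adjusted p = 0.000105, edgeR) and that of Atr 0.36 (adjusted p = 0.0752).

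**Figure D3:**
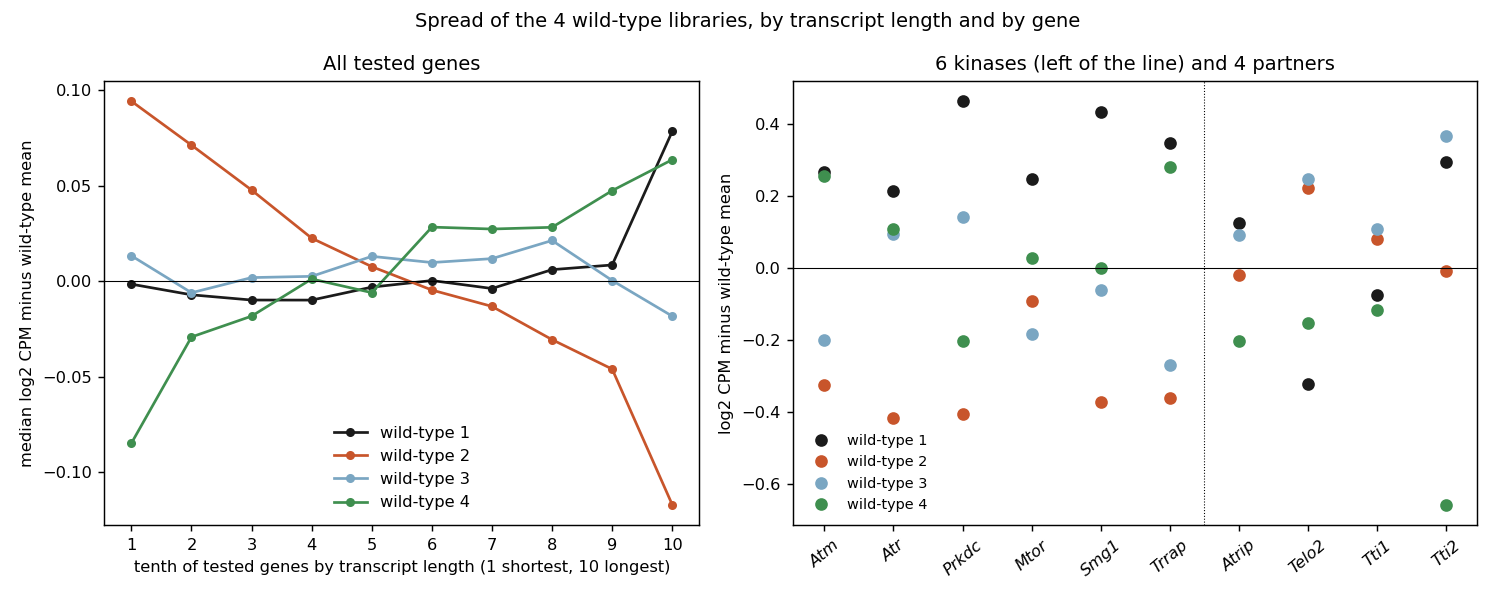
Left, median log2 CPM of all tested genes relative to the wild-type mean, for each wild-type library, over 10 bins of coding transcript length. Right, the same deviation for each of the 10 genes; wild-type 2 lies at -0.12 in the longest bin and between -0.42 and -0.09 for the 6 kinases, and wild-type 1 at 0.08 and between 0.21 and 0.46.

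Within a library, the kinases can be set against each other. Relative to the mean log2 CPM of the other 5 kinases, Atm was at 0.50, 0.58, 0.43 and 0.79 in wild-type and at 1.18, 1.04 and 1.148 in knockdown. These values describe the balance of Atm against genes that share the library and the length class, and no knockdown value overlapped a wild-type value. Atr is set against a mean that includes Atm, which rose. For Atr the same difference was -0.62, -0.59, -0.28 and -0.45 in wild-type and -0.05, -0.32 and -0.49 in knockdown, which overlap. For Smg1 it was 1.49, 1.32, 1.39 and 1.27 in wild-type and 0.94, 1.172 and 1.158 in knockdown, so that Smg1 was lower against the rest of its family in all 3 knockdown libraries while its own CPM did not pass; the mean it is set against includes Atm and Atr.

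Per length, Tti1 was the most abundant transcript of the 10. On the scale of CPM per kilobase of merged exons the wild-type order was Tti1 (14.4 ± 1.11), Atm (4.29 ± 0.90), Atrip (3.40 ± 0.34), Smg1 (2.95 ± 0.70), Telo2 (2.33 ± 0.45), Trrap (2.29 ± 0.57), Mtor (1.94 ± 0.26), Prkdc (1.13 ± 0.31), Atr (1.01 ± 0.18) and Tti2 (0.62 ± 0.18; SD, n = 4). The range of Tti1 over the 4 libraries lay above those of all other genes, and that of Mtor lay above that of Prkdc. Every other pair of neighbours in this order had overlapping ranges, Atr and Tti2 included. Merged exons count every annotated exon, which is much longer than the main transcript for Atr (23629 against 8102 bases) and Atrip (7152 against 2572 bases). Per kilobase of the longest coding transcript Atr was at 2.95 ± 0.53, above Prkdc at 1.18 ± 0.32, and Atrip at 9.45 ± 0.95 was second to Tti1 at 15.5 ± 1.198. In knockdown Atm stood at 7.12 ± 0.39 per kilobase of merged exons (SD, n = 3), second to Tti1 as in wild-type. Per kilobase of the longest coding transcript it was the fifth in wild-type (4.52 ± 0.95) and the third in knockdown (7.49 ± 0.41), so its place depends on the length used.

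**Figure D4:**
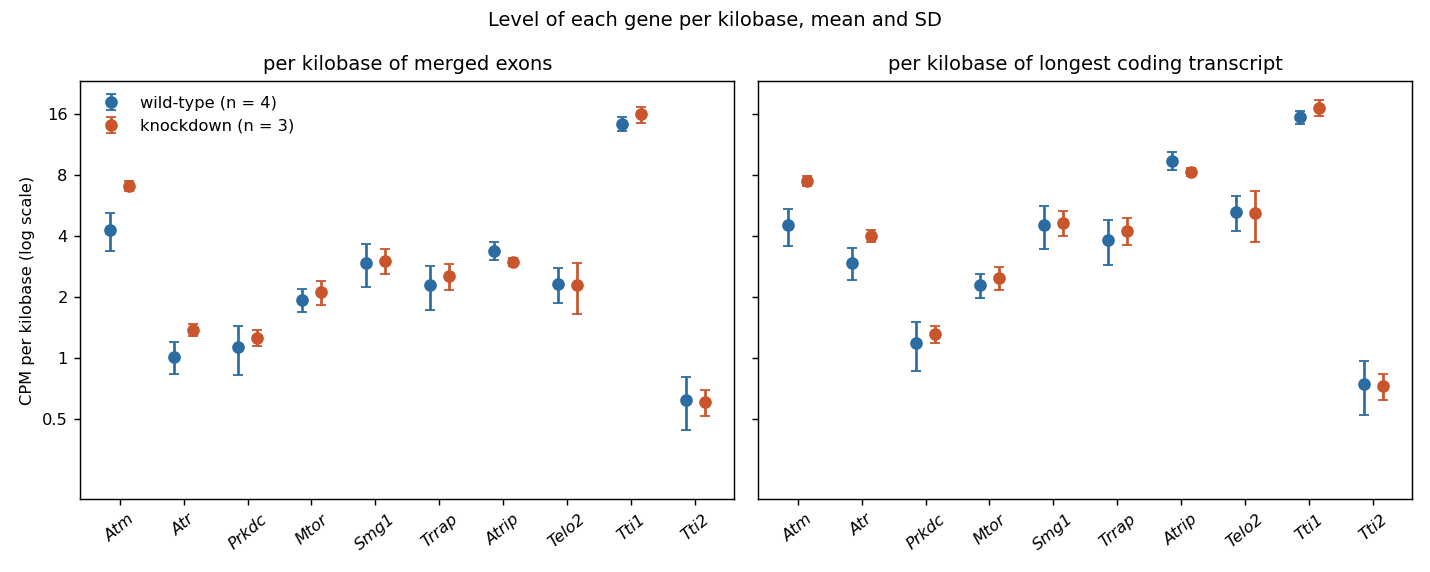
CPM per kilobase (log axis) of the 10 genes in wild-type (blue, mean and SD, n = 4) and knockdown (orange, n = 3), with length taken as merged exons (left) or as the longest coding transcript (right). Tti1 is highest and Tti2 lowest with either length, and the places of most other genes depend on the length used, that of Atm in wild-type moving from 2 to 5.

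Of the 10 genes, 3 had a protein-coding neighbour on the other strand whose start lay within 1000 bases, so that both are read away from a common region. Atm and Npat, a coactivator of histone gene transcription, start 307 bases apart in GENCODE and 376 bases apart in RefSeq, and the RefSeq windows have 125 bases of DNA in common. Npat was at 51.3, 40.5, 55.7 and 39.3 CPM in wild-type and at 64.9, 73.4 and 67.5 CPM in knockdown, and it rose by 0.55 log2 units (SE 0.11, adjusted p = 0.000256, edgeR). The Npat groups did not overlap, and both genes of the pair were higher in all 3 knockdown libraries than in any wild-type library.

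Prkdc and Mcm4, a subunit of the replicative helicase, start 466 bases apart. Mcm4 was at 160.5, 140.9, 149.3 and 154.0 CPM in wild-type and at 196.9, 221.5 and 217.1 CPM in knockdown. It rose by 0.49 log2 units (SE 0.07, adjusted p = 1.8e-06, edgeR), with no overlap, while the knockdown values of Prkdc lay inside its wild-type range. Whether the changes of Prkdc and Mcm4 differ was not tested.

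Tti1 and Rprd1b, a regulator of RNA polymerase II, start 64 bases apart in GENCODE and 63 in RefSeq and share 162 bases of their RefSeq windows, the E2F letters of the Tti1 sequence among them. Rprd1b was at 98.3 to 113.3 CPM in wild-type and at 96.7 to 114.4 CPM in knockdown, with overlapping groups and a log2 fold change of -0.02 (adjusted p = 0.883, edgeR). Neither gene of this pair passed.

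Genes that act with the kinases or their partners, and the related lipid kinases, were counted in the same fit. The lists were written with earlier results of these data known. Each count of list genes stands beside 14.1% of all tested genes higher and 15.3% lower, and nothing particular to a list is read from it. In the Atm list, 4 of 10 genes rose and none fell, with a median log2 fold change of 0.18 beside 0.001 over all tested genes. Nbn, which brings Atm to breaks as part of the MRN complex, rose from 20.6 ± 1.32 to 30.7 ± 1.38 CPM (0.58, adjusted p = 0.00147, edgeR). Chek2, the kinase that Atm activates, rose from 16.1 ± 2.39 to 22.9 ± 1.98 CPM (0.51, adjusted p = 0.0166), but 3 alternatives ended this call. They were the replicate block (0.44, adjusted p = 0.0759) and the fits without wild-type replicate 4 (0.44, adjusted p = 0.0544) or Ddx54 knockdown replicate 2 (0.43, adjusted p = 0.112). The chromatin adaptor Mdc1 (0.49) and the ubiquitin ligase Rnf168 (0.44) rose as well. The other MRN subunits, Rad50 (0.08, adjusted p = 0.496) and Mre11a (0.05, adjusted p = 0.766), did not pass.

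In the list of Atr and Chk1 signalling 7 of 13 genes rose, none fell, and the median was 0.43. Clspn, the adaptor through which Atr activates Chk1, rose from 60.9 ± 11.4 to 124.9 ± 1.60 CPM (1.04, adjusted p = 1.47e-09, edgeR). Rpa2 and Rpa1, subunits of the protein that coats single-stranded DNA, rose by 0.80 and 0.57, and Timeless, of the fork protection complex, by 0.64. The remaining rises were of Topbp1 (0.49), Hus1 (0.48) and Tipin (0.23), which are an activator of Atr, a subunit of the 9-1-1 clamp and the partner of Timeless. Chek1, the kinase downstream of Atr, did not pass, with 33.8 ± 4.07 CPM in wild-type against 41.9 ± 3.24 CPM (0.31, adjusted p = 0.0548). Many genes of this list are known to be expressed in S phase, and the share of cells in each phase was not measured.

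The list of DNA-PK and the joining and processing of ends had 4 of 11 tested genes lower and none higher, beside 15.3% and 14.1% of all tested genes, with a median of -0.13. Xrcc5, which encodes the Ku80 subunit that recruits Prkdc, fell from 47.7 ± 3.18 to 38.5 ± 2.52 CPM (-0.31, adjusted p = 0.0375, edgeR), a call that held under 10 of 17 alternatives. It was lost under the replicate block (-0.33, adjusted p = 0.059), with total counts only (-0.23, adjusted p = 0.128), with wild-type replicates 1 and 2 both left out (-0.27, adjusted p = 0.14), and without wild-type replicate 1 or 3 or Ddx54 knockdown replicate 1 or 3 (adjusted p = 0.0556 to 0.13). Its partner Xrcc6 did not pass, with 51.1 ± 0.60 CPM in wild-type against 44.3 ± 3.70 CPM (-0.21, adjusted p = 0.151), although the groups did not overlap. The polymerase Polm fell most, from 17.5 ± 3.44 to 9.46 ± 2.28 CPM (-0.88, adjusted p = 0.00103), and the end-processing enzyme Tdp1 (-0.33) also fell, a call that held under 11 of 17 alternatives. The count of genes lower dropped to 2 with total counts as the only scaling, under the length and GC correction, with wild-type replicates 1 and 2 both left out, without wild-type replicate 3 and without Ddx54 knockdown replicate 1, and to 1, Polm, without Ddx54 knockdown replicate 3. The ligase Lig4 (0.25, adjusted p = 0.299) and its partner Xrcc4 (-0.10, adjusted p = 0.742) did not pass.

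**Figure D5:**
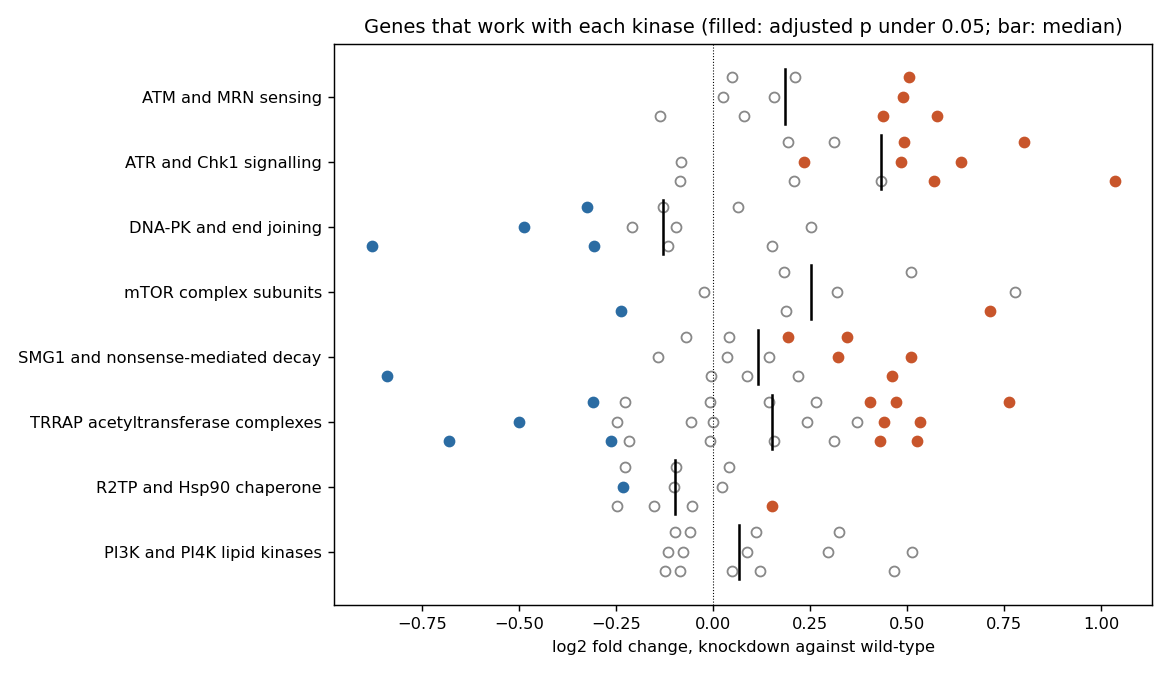
Log2 fold change, knockdown against wild-type, of each tested gene in the 8 lists. They hold genes that act with the kinases or their partners and, in the last list, the related lipid kinases. Filled orange circles were higher and filled blue circles lower at an adjusted p of 0.05, open circles did not pass, and black bars are list medians. The 7 calls in the Atr and Chk1 list are all to the right of 0 and the 4 calls in the DNA-PK and end joining list all to the left. Of all tested genes 14.1% were higher and 15.3% lower. Over 17 alternatives the count of higher genes in the Atr and Chk1 list ranged from 5 to 9. That of lower genes in the DNA-PK list ranged from 1 to 4.

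Among 8 subunits of the mTOR complexes, 1 rose and 1 fell, and the median was 0.25. Mlst8, a subunit that both complexes share, rose from 18.0 ± 3.07 to 29.5 ± 1.66 CPM (0.71, adjusted p = 0.000441, edgeR). Deptor, an inhibitory subunit, was abundant and fell from 551.5 ± 7.80 to 467.9 ± 23.7 CPM (-0.24, adjusted p = 0.00237). Rptor (0.32, adjusted p = 0.112) and Rictor (0.18, adjusted p = 0.273), which define the first and the second complex, did not pass.

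In the nonsense-mediated decay list 5 of 14 genes rose and 1 fell, with a median of 0.11. The gene that fell was Smg6, the endonuclease that cuts target transcripts, from 105.4 ± 2.10 to 58.9 ± 1.97 CPM (-0.84, adjusted p = 1.56e-09, edgeR). Upf1, the helicase that Smg1 phosphorylates, rose from 108.7 ± 10.6 to 149.7 ± 3.26 CPM (0.46, adjusted p = 2.34e-05), and Smg5, an adaptor for phosphorylated Upf1, from 28.0 ± 2.23 to 39.9 ± 6.85 CPM (0.51, adjusted p = 0.00302). Magoh (0.35), Upf3b (0.32) and Eif4a3 (0.19), of the exon junction complex and its link to decay, rose by less. Smg8 (0.04, adjusted p = 0.907) and Smg9 (-0.14, adjusted p = 0.601), which bind Smg1 directly, did not pass.

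In the list of acetyltransferase complexes built on Trrap, 7 of 24 tested genes were higher and 4 lower (median 0.15), beside 14.1% higher and 15.3% lower of all tested genes, and the count of lower genes is near that share. Kat2b, an acetyltransferase, rose from 28.6 ± 6.37 to 48.6 ± 5.01 CPM (0.76, adjusted p = 9.23e-05, edgeR), and Brd8 (0.53) and Meaf6 (0.53), subunits of the NuA4 complex, rose too. Supt3, a subunit of the SAGA complex, fell from 68.7 ± 5.52 to 42.8 ± 5.69 CPM (-0.68, adjusted p = 7.52e-06). The catalytic subunits Kat2a (-0.01, adjusted p = 0.974) and Kat5 (0.16, adjusted p = 0.423) did not pass; Kat5 is also counted in the Atm list.

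The chaperone list, through which the TTT complex acts, had 1 of 10 genes higher and 1 lower (median -0.10). Hsp90aa1, an Hsp90 isoform, rose from 982.2 ± 38.0 to 1091 ± 32.1 CPM (0.15, adjusted p = 0.0427, edgeR), a call lost under 9 of 17 alternatives. Csnk2a1, a catalytic subunit of casein kinase 2, which phosphorylates Telo2, fell from 384.7 ± 14.95 to 327.3 ± 14.8 CPM (-0.23, adjusted p = 0.00415), and Hsp90ab1, Ruvbl1 and Ruvbl2 did not pass. Of 14 tested genes of the PI3K and PI4K lipid kinases, 0 passed with edgeR, with 1 at an unadjusted p under 0.05, and the median was 0.07. That gene was Pik3r4, the regulatory subunit of the class III enzyme, with 32.8 ± 4.87 CPM in wild-type against 41.0 ± 2.77 CPM (0.32, adjusted p = 0.0524). It passed with limma-voom and under 5 other alternatives, and 0 genes of this list passed with DESeq2.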

How the data were processed

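The deposited table holds raw gene counts, whole numbers of reads per gene symbol, for 7 libraries of polyadenylated RNA, and the authors' normalization was none. Per the submitters' processing notes, Trimmomatic, STAR and HTSeq were used with the mouse build mm10. Not given in the sources used here are the annotation, the strand setting and the treatment of reads that map to several places. All 24419 symbols entered edgeR 4.0.16 (R 4.3.3), with its filter on low counts, TMM scaling and the robust quasi-likelihood test of knockdown against wild-type, and p-values were adjusted by Benjamini-Hochberg over the 11594 genes kept (threshold 0.05). Standard errors and 95% intervals are approximations from the F statistic. Library totals were 14987324 to 18673395 counts, and counting error is largest for genes of few counts. The code was tested on simulated data. Lengths, GC content and positions came from GENCODE M21 (GRCm38), matched by symbol or synonym for 99.4% of tested genes, and promoters from RefSeq. Alternatives used DESeq2 1.42.0, limma 3.58.1, other scalings and filters, a correction for GC content and length, the replicate block and left-out libraries. The genes and lists were chosen with earlier results of these data known. Named from each list were up to 4 genes past the threshold with the largest change, or, if fewer than 2 passed, the 2 of smallest p. Other list genes named were chosen after their values were seen. Some genes of these lists are not reported here by name.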

Additional observations from a re-analysis of the deposited data

How the results depend on the processing

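Over 17 alternatives, 1222 to 2211 genes were higher and 1342 to 1860 lower. Atm passed in 17 of 17, Atr in 12 of 17 and the other 8 genes in 0. Leaving out 1 library at a time gave log2 fold changes of 0.32 to 0.51 for Atr, -0.073 to 0.20 for Smg1, -0.17 to 0.21 for Telo2, -0.22 to 0.087 for Tti2 and -0.093 to 0.030 for Rprd1b. It gave 1 to 4 genes lower in the DNA-PK list, 1 to 2 higher in the mTOR list, and 0 to 1 higher in the chaperone and lipid kinase lists. With the GC content and length correction Atr was at 0.31, Smg1 at -0.093 and Telo2 at 0.074, the DNA-PK list had 2 genes lower, the chaperone list 0 higher, and the lipid kinase list 1 higher and 1 lower. With total counts only, Telo2 was at 0.063, Tti2 at 0.041 and Rprd1b at 0.056, 2 genes of the DNA-PK list and 0 of the chaperone list were lower, and 2 of the mTOR list and 1 of the lipid kinases were higher. With limma-voom Tti2 was at 0.0017 and 1 lipid kinase gene was higher, as with at least 50 counts in 3 libraries. Upper-quartile scaling or no filter left 0 chaperone genes higher. With wild-type replicates 1 and 2 both left out, chosen after seeing the data, Atr was at 0.36, Tti2 at 0.078, 2 DNA-PK genes were lower and 0 chaperone genes higher. The cause of these moves was not tested.

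The replicate number as a block left 1375 genes higher in knockdown and 1487 genes lower in knockdown, with Atm at 0.83, Atr at 0.49 and Rprd1b at 0.00039, 2 mTOR genes and 1 lipid kinase gene higher. No knockdown library carries the number of wild-type 4, so this fit gives that library no weight in the comparison. Same-numbered libraries did not deviate together (correlations -0.0344 to -0.00627 over 3 pairs), and 0 knockdown libraries correlated best with their own number. The labels do not say what the number stands for, and 3 pairs cannot show whether same-numbered libraries share a culture or preparation. Per kilobase of the longest coding transcript, wild-type levels moved to 2.95 for Atr, 2.29 for Mtor, 4.54 for Smg1, 3.83 for Trrap, 9.45 for Atrip, 5.27 for Telo2 and 15.5 for Tti1. Depth limits Tti2 most, at 38 to 82 counts per library.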
